A study of Mus musculus with 8 samples.

Results

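The genes described here are Srebf2, Insig1, Hmgcs1, Idi1, Fdft1, Sqle and Cyp51, 7 genes of cholesterol synthesis and its control, among 30918 genes measured in mouse multipotent progenitors. They were chosen by symbol for their function, and each had 1 annotated probe set on the array. They comprise 5 enzymes and 2 regulators. No sterol uptake gene is among them, so uptake genes are given from a separate pathway list. RNA came from 4 samples of mice homozygous for the elektra allele of Slfn2 (Slfn2 elektra/elektra) and from 4 samples of littermates homozygous for the wild-type allele (Slfn2 wt/wt), all with a C57Bl/6 background and untreated. The elektra allele is described in the series title as a loss of function. Multipotent progenitors, which lie below the stem cell and give rise to all blood lineages, were sorted from c-Kit-enriched marrow as LSK (lineage-negative, Sca-1-positive, c-Kit-positive) CD48- CD150- cells. Per the labels' protocols each sample pooled bones of 2 mice that shared a genotype, whereas the series text counts 4 mice per genotype, so the number of animals is not settled. Each sample was measured on 1 Affymetrix array, and the ages of the mice are not given in the sources used here.

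Cells make cholesterol from acetyl-CoA through mevalonate, isoprenoids, squalene and lanosterol. The transcription factor SREBP2, encoded by Srebf2, switches on nearly the whole set of enzymes together with genes of sterol uptake when sterols in the membrane of the endoplasmic reticulum run low. When sterols are plentiful, the anchor protein encoded by Insig1 holds the SREBP escort protein Scap in that membrane, and Insig1 is itself a target of SREBP2. Dividing blood progenitors use the pathway for new membrane and for the isoprenoid groups attached to small GTPases.

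Promoter windows of 3 of the genes are shown, Hmgcs1 because it held the only SREBP site match found, and Insig1 and Idi1 as windows without that match, of a regulator and of an enzyme. Each window runs from 250 bases before to 50 bases after an annotated start (RefSeq, GRCm38.p6), and RefSeq windows were at hand for 5 of the 7 genes. Windows were searched on both strands for an SREBP site (TCACNCCAC), the NF-Y core CCAAT and the Sp1 core GGGCGG, and capitals mark the matches, none of which overlap. Hmgcs1 lies at chr13:119690101-119690400 on the plus strand, Insig1 at chr5:28071162-28071461 on the plus strand, and Idi1 at chr13:8885356-8885655 on the plus strand.
Hmgcs1: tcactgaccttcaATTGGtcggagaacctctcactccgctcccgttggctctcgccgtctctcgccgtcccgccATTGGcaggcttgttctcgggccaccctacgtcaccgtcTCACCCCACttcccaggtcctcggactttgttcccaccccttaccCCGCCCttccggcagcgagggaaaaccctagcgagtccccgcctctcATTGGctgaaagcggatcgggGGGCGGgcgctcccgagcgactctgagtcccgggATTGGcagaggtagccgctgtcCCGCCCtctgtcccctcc
Insig1: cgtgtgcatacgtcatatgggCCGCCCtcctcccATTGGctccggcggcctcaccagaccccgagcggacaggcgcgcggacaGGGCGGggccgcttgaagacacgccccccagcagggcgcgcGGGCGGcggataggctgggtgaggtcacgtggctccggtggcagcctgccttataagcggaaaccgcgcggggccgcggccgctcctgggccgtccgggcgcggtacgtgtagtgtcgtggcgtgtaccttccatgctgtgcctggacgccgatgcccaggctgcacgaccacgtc
Idi1: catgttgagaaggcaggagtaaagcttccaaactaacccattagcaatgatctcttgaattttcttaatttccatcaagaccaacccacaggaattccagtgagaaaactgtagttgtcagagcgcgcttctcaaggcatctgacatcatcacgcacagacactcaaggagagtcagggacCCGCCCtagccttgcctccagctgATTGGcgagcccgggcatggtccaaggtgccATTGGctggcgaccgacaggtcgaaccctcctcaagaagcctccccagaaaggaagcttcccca

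The Hmgcs1 window held 1 SREBP site match, 4 NF-Y core matches and 3 Sp1 core matches. The Insig1 window held 1 NF-Y and 3 Sp1 matches, and the Idi1 window 2 NF-Y matches and 1 Sp1 match. All 5 windows, those of Srebf2 and Cyp51 included, held both cores. Among 32851 RefSeq windows of 300 bases, 1.24% held the SREBP letters, 37.4% the NF-Y core and 35.7% the Sp1 core on either strand. A match describes these letters in this window and no more.

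The arrays had medians between 2.02 and 2.13 in log2 intensity, and any pair correlated at 0.966 or higher over 34390 annotated probe sets. Elektra replicate 2 stood apart. Its upper quartile was 3.63, whereas those of the 7 remaining arrays lay between 3.80 and 3.83. Of the genes behind the sort gate, Kit and Ly6a (Sca-1) both lay at the 99.6 percentile of probe set intensities, which also depend on the probes. Cd48, whose protein the gate excludes, lay at the 75.4 percentile (4.01 ± 0.16 for Elektra, 3.85 ± 0.36 for wild type) and Slamf1 (CD150), also excluded, at the 39.0 percentile. Cd34, a progenitor gene outside the gate, lay at the 99.4 percentile, and none of the 6 sort markers passed the test given below. Flt3, a receptor of lymphoid-primed progenitors, had 7.09 ± 0.16 for Elektra against 7.43 ± 0.07 for wild type (SD, n = 4), with no overlap and a limma adjusted p of 0.884. The mean level of Slfn2 was 2.10 ± 0.08 across Elektra arrays and 2.08 ± 0.31 across wild-type arrays (SD, n = 4). Because elektra alters the coding sequence, a transcript level cannot serve to check the genotype labels. Summed over 6 marker genes, log2 levels ran from 4.79 to 5.07 over all arrays for B cells, and over 5 genes from 4.39 to 4.59 for T cells. For 6 mast cell genes they ran from 3.98 to 4.38 in Elektra and from 3.86 to 4.16 in wild type. Of these dim genes (means 0.91 to 2.20) 5 of 6 were higher in Elektra and none passed the test. Neutrophil granule genes varied more, from 5.22 to 7.18 in Elektra and from 4.99 to 8.02 in wild type, as did erythroid genes (6.95 to 8.38 and 7.15 to 8.06). Macrophage and monocyte genes ran from 5.49 to 6.17 in Elektra and from 6.12 to 6.33 in wild type, with 2 of 6 higher in Elektra and none past the test. The part of these in any result below was not tested.

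No difference between genotypes in the 7 genes was larger than the spread between arrays allowed the test to call. In limma with Benjamini-Hochberg adjustment over all 30918 genes, 0 of the 7 passed an adjusted p of 0.05, as did 0% of all genes (lowest adjusted p 0.884). At an unadjusted p under 0.05 there were again 0 of the 7, against 5.5% of all genes (1702 genes, 2.63% higher and 2.87% lower in Elektra). The Elektra and wild-type values overlapped for each of the 7, while they were fully separate for 3.23% of all genes. Means were higher in Elektra for Hmgcs1, Fdft1, Sqle and Insig1 and lower for Idi1, Srebf2 and Cyp51, and the median log2 change of the 7 was 0.04 against 0.01 over all genes. On leaving out each array that median ran from -0.10 (without wild type replicate 3) to 0.18 (without wild type replicate 1), so it has no settled sign. The authors' deposited log ratios are the same mean differences of the same values, so their directions add no support. Their unadjusted p-values, which equal those of a pooled-variance test, ran from 0.191 (Cyp51) to 0.905 (Idi1). The labels call the samples of a genotype biological replicates, and the p-values measure the spread between them. They take each array as independent. Whether the animals behind the arrays were independent cannot be checked while their number is not settled. The deviations of the arrays did share a grouping by array number across genotypes, given with the processing of the data. The main fit holds no term for this grouping, and what lies behind it was not tested.

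**Figure D1:**
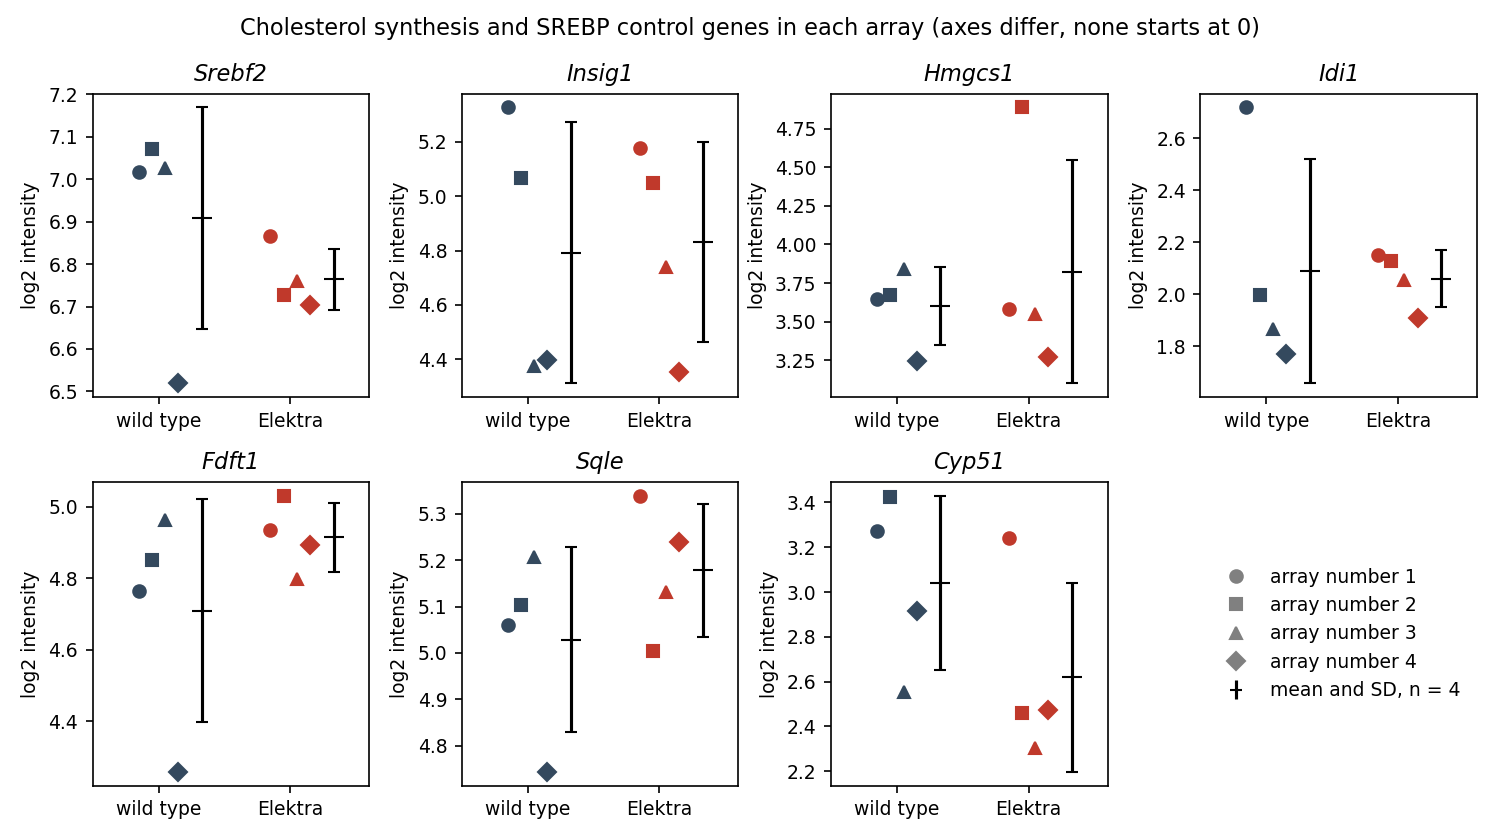
Log2 intensity of each of the 7 genes (y axes, which differ and do not start at 0) in the 4 wild-type and 4 Elektra arrays, with symbols for the array number and bars for mean and SD. The groups overlap in every panel, and wild type replicate 4 is the lowest array for Srebf2 (6.52), Hmgcs1 (3.24), Idi1 (1.77), Fdft1 (4.26) and Sqle (4.74).

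Of the regulators, Srebf2 had log2 intensities of 6.87, 6.73, 6.76 and 6.70 in Elektra replicates 1 to 4 and of 7.02, 7.07, 7.03 and 6.52 in wild type. Wild type replicates 1 to 3 lay above all Elektra arrays, and wild type replicate 4 lay below them. The log2 change was -0.14 (SE 0.13, 95% interval -0.44 to 0.15, limma adjusted p = 0.903). Without wild type replicate 4, the array that lay against the difference, it was -0.27 (unadjusted p = 0.0197, adjusted p = 0.945). Leaving out an Elektra array instead gave an unadjusted limma p from 0.255 (replicate 1) to 0.424 (replicate 4). Without wild type replicate 1 or 2 that p was 0.480 or 0.546. Over all alternatives the log2 change stayed between -0.27 and -0.09. Srebf2 lay at the 97.4 percentile of probe set intensities.

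Insig1 was 5.18, 5.05, 4.74 and 4.36 in Elektra and 5.33, 5.07, 4.37 and 4.40 in wild type. In both genotypes the arrays numbered 1 and 2 were the high ones and those numbered 3 and 4 the low ones, so the spread within a genotype was far wider than the gap between them. The log2 change was 0.04 (SE 0.25, interval -0.51 to 0.59, adjusted p = 0.989). Its sign turned with median centring, with array weights and on leaving out any of 4 arrays. Within the arrays numbered 1 and 2 Elektra minus wild type was -0.08, and within the remaining arrays 0.16.

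The early pathway is represented by Hmgcs1 and Idi1. Hmgcs1 encodes the cytosolic HMG-CoA synthase, which works early in the route to mevalonate. It was 3.58, 4.89, 3.55 and 3.27 in Elektra and 3.65, 3.67, 3.84 and 3.24 in wild type. Elektra replicate 2, the array that stands apart on the whole profile, was the highest, and the 7 remaining arrays lay between 3.24 and 3.84. The log2 change was 0.22 (SE 0.31, interval -0.46 to 0.91, adjusted p = 0.933) and turned to -0.13 without that array.

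Idi1 encodes the isomerase that turns isopentenyl diphosphate into its reactive partner, the step before isoprenoid chains are built. Its log2 intensities were 2.15, 2.13, 2.06 and 1.91 in Elektra and 2.72, 2.00, 1.87 and 1.77 in wild type. Wild type replicate 1 was highest, and the 7 remaining arrays lay between 1.77 and 2.15. The log2 change was -0.03 (SE 0.19, interval -0.45 to 0.39, adjusted p = 0.989), and it was 0.18 without wild type replicate 1. The probe set was dim, at the 49.3 percentile of probe set intensities.

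Fdft1 and Sqle encode squalene synthase and squalene epoxidase, which commit the chain to sterols and oxidise it. Fdft1 was 4.93, 5.03, 4.80 and 4.89 in Elektra and 4.76, 4.85, 4.96 and 4.26 in wild type. Sqle was 5.34, 5.004, 5.13 and 5.24 in Elektra and 5.06, 5.10, 5.21 and 4.74 in wild type. For both genes 3 of the 4 wild-type arrays lay among or close to the Elektra values, and wild type replicate 4 was the lowest of all 8. The log2 changes were 0.20 for Fdft1 (SE 0.15, interval -0.13 to 0.54, adjusted p = 0.896) and 0.15 for Sqle (SE 0.12, interval -0.13 to 0.43, adjusted p = 0.898). Without wild type replicate 4 both were close to 0.05 (0.054 and 0.055).

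Cyp51, which encodes lanosterol demethylase, had the largest log2 change of the 7. Its values were 3.24, 2.46, 2.30 and 2.47 in Elektra and 3.27, 3.42, 2.55 and 2.92 in wild type. Elektra replicate 1 lay with the high wild-type arrays, whereas the other 3 Elektra arrays lay below all wild-type ones. The log2 change was -0.42 (SE 0.24, interval -0.95 to 0.10, limma unadjusted p = 0.104, adjusted p = 0.887). The log2 change was -0.50 within the arrays numbered 1 and 2 and -0.35 within the remaining arrays. These are parts of the same difference, split after seeing the data, and add no support to it. In the first part the replicate 1 arrays lay close (3.24 in Elektra, 3.27 in wild type). The replicate 2 arrays lay apart (2.46 and 3.42), and Elektra replicate 2 is the array that stands apart on the whole profile. Without Elektra replicate 1 it was -0.63 (unadjusted p = 0.0113, adjusted p = 0.704), and without wild type replicate 3 the unadjusted p was 0.0304. Both fits leave out an array that lay against the difference. Leaving out Elektra replicate 2, 3 or 4 instead raised the unadjusted limma p to 0.193, 0.243 or 0.195. Without wild type replicate 1 or 2 that p was 0.217 or 0.260. Over all alternatives the log2 change lay between -0.63 and -0.30.

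All 7 intervals of the log2 change included 0, and none reached 1 in either direction. The widest belonged to Hmgcs1 and Insig1, and the narrowest to Sqle and Srebf2. Depth of signal is not given as a detection call in the deposited files, so low values such as those of Idi1 carry no statement on presence. The number of arrays limits the precision. In sorted bulk samples, fewer cells of a type and less RNA per cell cannot be told apart.

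**Figure D2:**
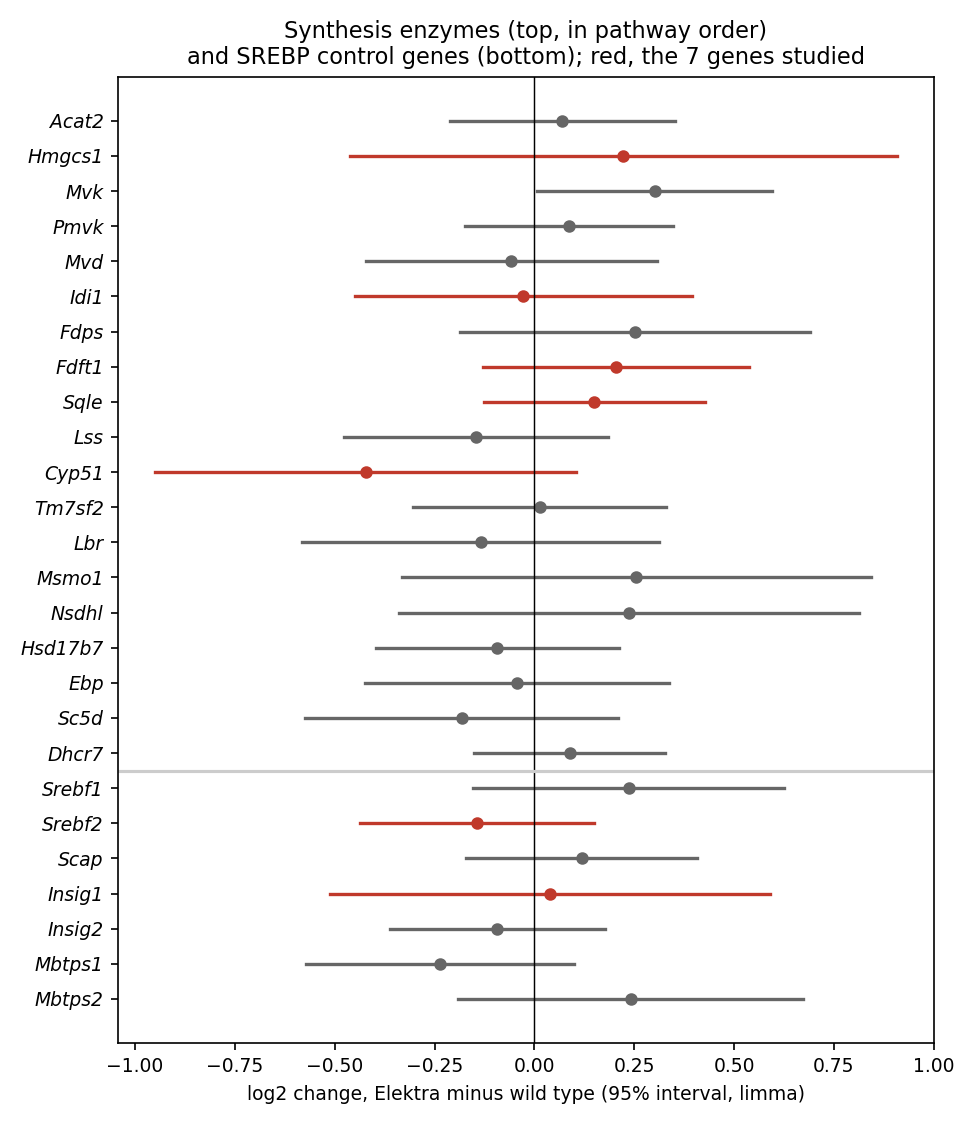
Log2 change, Elektra minus wild type (x axis), with the 95% interval from limma for 19 synthesis enzymes in pathway order and 7 SREBP control genes. The intervals of the 7 genes studied (red) all include 0, and that of Mvk (0.01 to 0.59) is the only interval drawn that does not.

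The 19 listed synthesis enzymes, 5 of the 7 genes among them, all had a probe set. None passed the adjusted threshold. Log2 changes were positive for 11 and negative for 8, where 53.9% of all genes had a positive one, and their median was 0.07. Mvk, mevalonate kinase, was 3.32 ± 0.18 for Elektra and 3.02 ± 0.20 for wild type (SD, n = 4), with the smallest p of the list (unadjusted 0.0452, adjusted 0.884). Farnesyl diphosphate synthase, Fdps, was 5.02 ± 0.22 and 4.77 ± 0.41, and Mvd, the mevalonate diphosphate decarboxylase, 3.48 ± 0.36 and 3.53 ± 0.07.

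Past squalene, Lss (lanosterol synthase) averaged 2.55 ± 0.09 over Elektra arrays against 2.69 ± 0.31 over wild-type arrays, and Msmo1, the sterol C4 methyl oxidase, 4.76 ± 0.40 and 4.51 ± 0.51. Sc5d, the sterol C5 desaturase, had the third smallest p of the enzymes outside the 7 (log2 change -0.18, and -0.03 without Elektra replicate 2), and the reductase gene Dhcr7 gave 4.81 ± 0.13 and 4.72 ± 0.14. None of these had an unadjusted p under 0.05.

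Around Srebf2 and Insig1, 0 of the 7 SREBP control genes passed, with 4 positive and 3 negative log2 changes. Srebf1, the sister factor that mainly drives fatty acid synthesis, averaged 4.48 ± 0.32 for Elektra against 4.25 ± 0.24 for wild type. Scap was 6.01 ± 0.24 and 5.89 ± 0.11, and Insig2 3.72 ± 0.20 and 3.82 ± 0.12. The proteases that release SREBPs in the Golgi lay in opposite directions, with log2 changes of -0.24 for Mbtps1 (adjusted p = 0.888) and 0.24 for Mbtps2 (adjusted p = 0.898). They were -0.12 for Mbtps1 without Elektra replicate 2 and 0.11 for Mbtps2 without Elektra replicate 3.

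The uptake and lysosomal release list had 10 genes, of which 4 had positive and 6 negative log2 changes (median -0.07), and 0 passed. Vldlr, the very-low-density lipoprotein receptor, was 3.41, 4.32, 4.67 and 4.36 in Elektra and 3.35, 3.26, 3.05 and 4.26 in wild type. Elektra replicate 1 lay near the 3 low wild-type arrays, and wild type replicate 4 near the 3 high Elektra ones (log2 change 0.71, SE 0.31, unadjusted p = 0.0431, limma adjusted p = 0.884). Npc2, whose protein takes part in the release of cholesterol from the lysosome, averaged 5.48 ± 0.18 for Elektra against 5.20 ± 0.18 for wild type (unadjusted p = 0.0455, limma adjusted p = 0.884). Mylip, a ubiquitin ligase that acts on lipoprotein receptors, gave 6.72 ± 0.20 and 6.96 ± 0.11, with an unadjusted limma p of 0.0711.

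The other lists also held no gene past the threshold. Of 10 efflux and storage genes 5 were positive and 5 negative. Soat2, a sterol acyltransferase that stores cholesterol as esters, was 2.53, 2.84, 2.63 and 2.96 in Elektra and 3.45, 2.96, 3.24 and 3.56 in wild type. The groups did not overlap, though Elektra replicate 4 and wild type replicate 2 both round to 2.96 (log2 change -0.56, SE 0.15, unadjusted p = 0.00374, adjusted p = 0.884). The cholesterol exporters Abca1 (-0.36) and Abcg1 (0.22) lay in opposite directions in log2 change. Without Elektra replicate 2, the array that stands apart, Abca1 was at -0.17, and without Elektra replicate 4 Abcg1 was at 0.14.

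Fatty acid synthesis genes had 10 positive and 3 negative log2 changes of 13 measured (median 0.10), with 4 at an unadjusted p under 0.05 on the positive side, where 2.63% of all genes lie. The count in either direction, also 4, was 0 without wild type replicate 2, 1 without wild type replicate 1, without Elektra replicate 4 or with median centring, and reached 5 without wild type replicate 3. Elovl5, which extends polyunsaturated fatty acids, averaged 6.80 ± 0.04 for Elektra and 6.56 ± 0.12 for wild type without overlap of the arrays. Elovl1 (4.16 ± 0.13 and 3.86 ± 0.14) and the desaturase gene Scd2 (9.49 ± 0.10 and 9.26 ± 0.09) lay the same way. The fourth was Scd1, dim at 1.67 ± 0.29 and 1.26 ± 0.29 and named after its values were seen. The adjusted p of all 4 was 0.884. Of the 71 measured genes of the 6 lists, 2 had groups that did not overlap (Soat2 and Elovl5), against 3.23% of all genes. The isoprenoid branch had 5 positive and 7 negative log2 changes of 12, and only Pdss1, a subunit of the enzyme for the ubiquinone tail, had an unadjusted p under 0.05 (2.17 ± 0.24 and 2.70 ± 0.31, adjusted p = 0.884). Next by limma p came Rabggta (log2 change -0.19, unadjusted p = 0.228) and Icmt (-0.16, unadjusted p = 0.371).

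**Figure D3:**
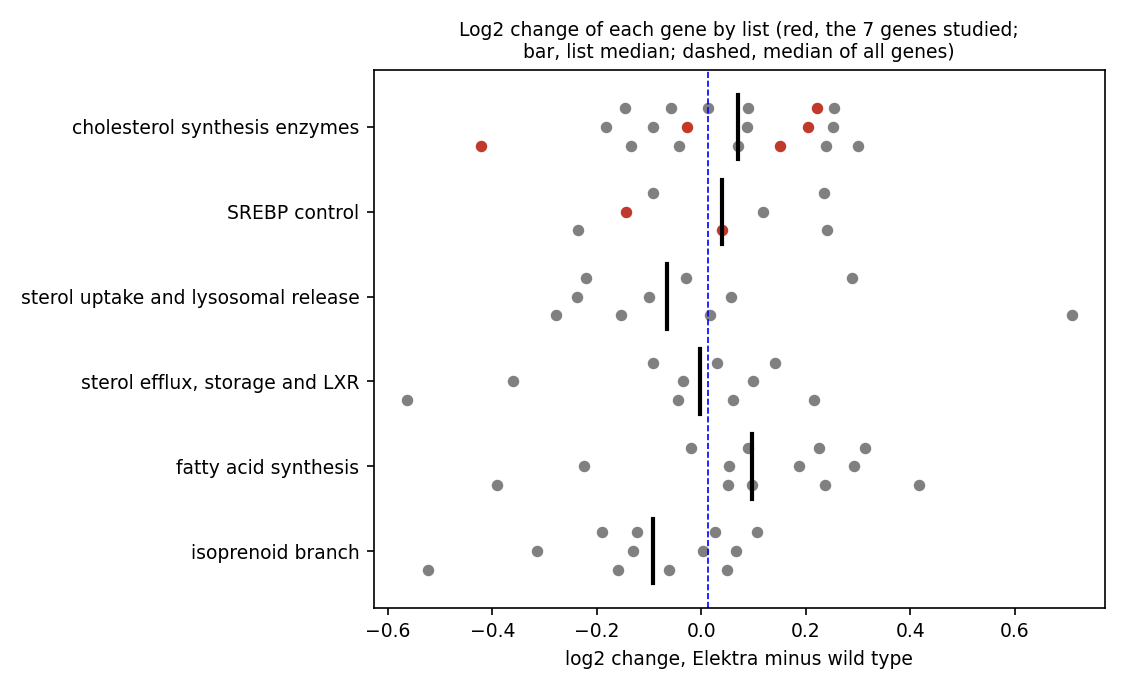
Log2 change, Elektra minus wild type (x axis), of each measured gene of 6 pathway lists (rows), with a bar at each list's median and a dashed line at the median of all genes (0.01). List medians lie between -0.09 (isoprenoid branch) and 0.10 (fatty acid synthesis), and the 7 genes studied (red) run from -0.42 to 0.22.

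The mean profile of the 7 genes varied more between arrays of the same genotype than between genotypes. The mean of their levels, each gene centred on its own mean over the 8 arrays, was 0.16, 0.16, -0.12 and -0.19 in Elektra replicates 1 to 4 and 0.23, 0.14, -0.05 and -0.33 in wild type. Arrays numbered 1 and 2 thus lay above those numbered 3 and 4 in both genotypes in this mean. Not each gene shared it, as Sqle in Elektra averaged 5.17 over arrays 1 and 2 and 5.18 over arrays 3 and 4. Pearson's r over the 8 arrays was 0.80 between Idi1 and Insig1, but -0.24 between Hmgcs1 and Cyp51 and -0.04 between Hmgcs1 and Sqle. The labels say nothing of what the numbers stand for, and no test was made of the division by array number. The 14 synthesis enzymes outside the 7 had smaller centred means, 0.12, 0.03, 0.02 and -0.07 in Elektra and 0.04, 0.05, 0.0029 and -0.18 in wild type.

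Wild type replicate 4 was the lowest array of its group for 5 of the 7 genes, against 25.7% of all genes above the median level. It was also lowest for 11 of the 19 synthesis enzymes, a count that shares genes with the first. Elektra replicate 4 was lowest of its group for 4 of the 7 genes and for 8 of the 19 enzymes, counts that share genes, against 19.6% of genes above the median level. That share depends on Elektra replicate 2, the array that stands apart. It was lowest of its group for 45.1% of genes above the median level, for 1 of the 7 and for 5 of the 19.

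**Figure D4:**
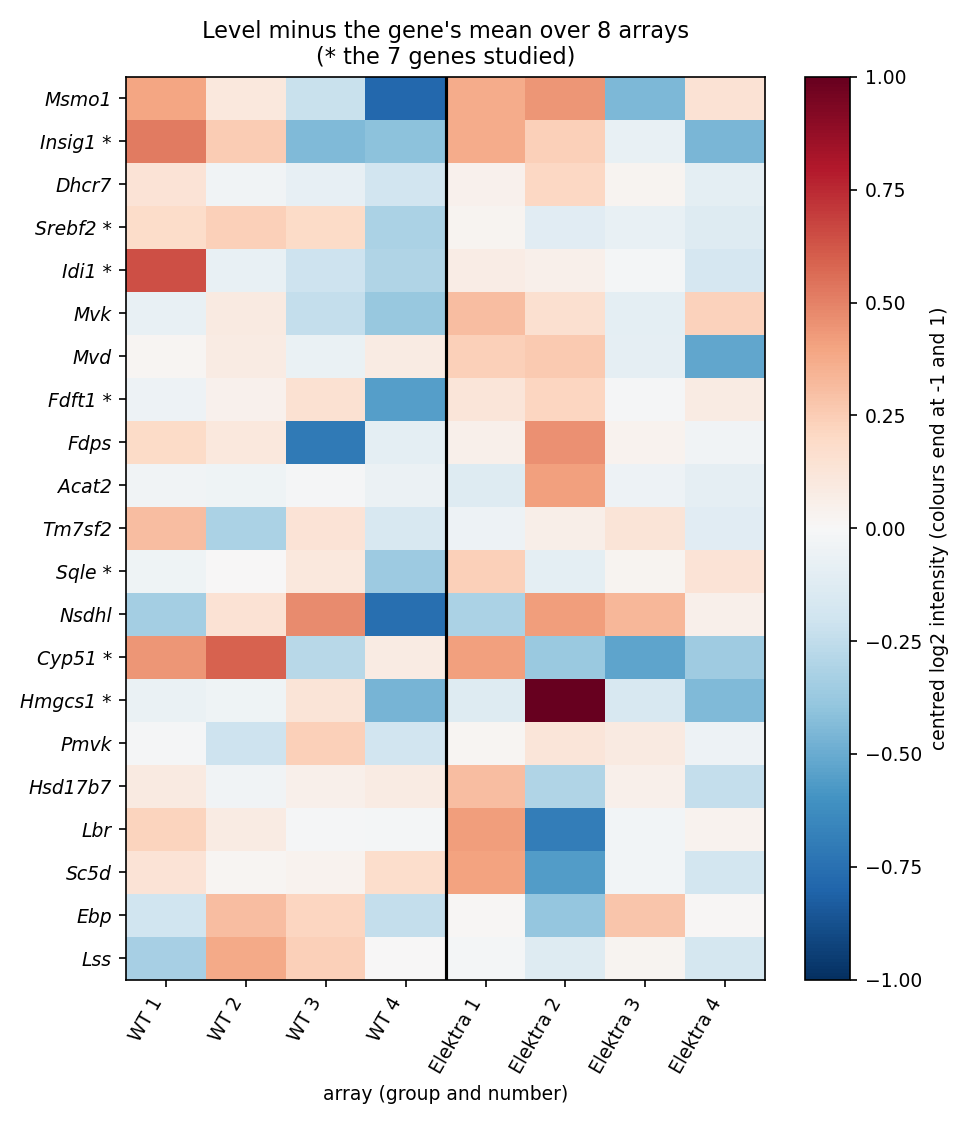
Log2 intensity minus each gene's mean over the 8 arrays (colour, ending at -1 and 1) for the 19 synthesis enzymes, Srebf2 and Insig1 (rows, ordered by likeness to the mean profile of the 7 genes, marked *) in the 4 wild-type and 4 Elektra arrays (columns). Msmo1, Insig1 and Dhcr7 head the order, and Insig1 is high in arrays numbered 1 and 2 of both genotypes.

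Likeness to this profile was measured as Pearson's r over the 8 arrays, leaving a gene out of the profile it was set against, and is given as a description because the arrays fall into sets on it. For the 7 genes themselves r was low for Hmgcs1 (0.21), Cyp51 (0.22) and Sqle (0.26) and highest for Insig1 (0.82), so they did not share the profile equally. Among the 14 other synthesis enzymes r was positive for 11, with a median of 0.25, where it was positive for 42.5% of the 15453 genes above the median level. Msmo1 (0.85) and Dhcr7 (0.81) were the most alike, with 0.71 to 0.97 and 0.69 to 0.88 on leaving out each array. Of the 11 positive values 6 turned negative on leaving out 1 array (Acat2, Pmvk, Tm7sf2, Lbr, Nsdhl and Hsd17b7, named after their values were seen), so the count rests in part on single arrays. The SREBP control genes outside the 7 ran the other way, with a positive r for 1 of 5 and a median of -0.61, Srebf1 (-0.66), Mbtps1 (-0.61) and Mbtps2 (-0.61) among them. It was positive for 3 of 10 uptake genes, 5 of 10 efflux genes, 1 of 13 fatty acid genes and 4 of 12 isoprenoid genes.

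The 10 genes above the median level with the highest r were Snord14e, Gm5614, Fxr2, Ftl1, Hist2h4, Nmb, Ccl3, Atf4, Btg1 and Hspa1b, with r from 0.94 to 0.97. They were selected for a high r out of the 15453 genes. Hspa1b, an inducible heat-shock protein, was 5.83, 6.20, 1.91 and 1.95 in Elektra and 6.75, 5.98, 2.18 and 1.55 in wild type, so that it separated arrays numbered 1 and 2 from 3 and 4 without overlap. Atf4, the transcription factor of the integrated stress response, was 8.05, 7.69, 7.25 and 7.13 in Elektra and 7.99, 7.78, 7.22 and 6.97 in wild type. The chemokine gene Ccl3 ran from 5.51 to 6.72 and from 4.48 to 7.06, with the same arrays high. The part of whatever these genes follow in the levels of the 7 was not tested. None of the 10 passed the test between genotypes (lowest limma adjusted p 0.948).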

How the data were processed

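The authors' deposited log2 intensities come from RMA (Affymetrix Expression Console 1.4) applied to arrays hybridised from 100 to 200 pg of RNA amplified with 12 cycles of PCR, per the submitters' processing notes and the labels' protocols. RMA normalizes arrays to each other, so total RNA is not measured, yet the deposited values still differed in distribution (upper quartiles 3.63 to 3.83). No genome build of the annotation is named by the labels or headers used here. The annotated table (34390 probe sets, 31872 with 1 symbol) supplied the values. Its columns were tied to samples by genotype and number. The fold score and unadjusted p-value in it are the authors' deposited values, the latter equal to a pooled-variance test within 2.88e-12.

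The brightest probe set stood for each gene, with no filter. Genotypes were compared with limma 3.58.1 (lmFit, then eBayes; R 4.3.3). Tests were two-sided, p-values were adjusted by Benjamini and Hochberg's method over 30918 genes, and the threshold was 0.05. The fit was tested on simulated data. The members and lists were chosen with earlier results of these data known, and some pathway genes are not reported here. Named are the 7 genes, the 3 smallest p-values of each list, set names such as Lss and Scap, the 10 genes most like the profile, Slfn2 and sort markers. Same-numbered arrays of the 2 genotypes had deviations correlated at 0.19, 0.04, 0.16 and 0.07, so the numbers were not taken to pair samples. Deviations correlated positively where both arrays were numbered 1 or 2, or both 3 or 4, and negatively otherwise. Elektra replicate 1 gave 0.16 with wild type replicate 2 and -0.20 with wild type replicate 3. Elektra replicate 3 gave 0.19 with wild type replicate 4 and -0.22 with wild type replicate 1. What lies behind this was not tested.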

Additional observations from a re-analysis of the deposited data

Results flagged for a closer look

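In the 76 groups of 4 arrays looked at (38 named genes in each genotype), 2 arrays stood far from the rest of their group by Dixon's criterion, which chance alone meets in about 5% of groups. Srebf2 in wild type replicate 4 was 6.52, with the nearest array at 7.02. Fdps in Elektra replicate 2 was 5.35, with the nearest at 4.94.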

How the results depend on the processing

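The count of genes past the adjusted threshold was 0 under each of the 18 alternatives run, and the lowest adjusted p was 0.0882, with wild type replicate 4 left out. At an unadjusted p under 0.05 there were 1062 of 18551 genes with dim genes left out, and 1411 to 2115 genes in the other alternatives. The lowest adjusted p of any of the 7 genes was 0.704 (Cyp51). Srebf2, Fdft1, Sqle and Cyp51 kept their sign throughout. The sign turned for Insig1 with median centring (-0.00099) and array weights (-0.0069), for Mvd with quantile normalization (0.0048), and for Slfn2 with quantile normalization (-0.017) and median centring (-0.020). On leaving out each array, log2 changes ran from -0.13 to 0.41 for Hmgcs1, -0.13 to 0.18 for Idi1, -0.10 to 0.22 for Insig1, -0.15 to 0.11 for Mvd, -0.11 to 0.14 for Slfn2 and -0.10 to 0.023 for Cd34. Quantile normalization moved Insig1 from 0.04 to 0.10 and Sqle from 0.15 to 0.22. On leaving out each array, medians ran from -0.10 to 0.18 for the 7 genes, -0.08 to 0.14 for SREBP control, -0.011 to 0.046 for the whole pathway and 0.07 to 0.18 for fatty acid synthesis, from -0.13 to 0.0034 for uptake and from -0.11 to 0.043 for the isoprenoid branch. With the replicate number as a block, 0 genes passed and 1880 had an unadjusted p under 0.05; the block changed no call at the adjusted threshold, but at an unadjusted p under 0.05 it took the count among the 7 genes from 0 to 1, through Cyp51 (-0.42, limma unadjusted p = 0.0311, adjusted p = 0.804), and the count among fatty acid genes from 4 to 2. The count among the 7 was also 1 without Elektra replicate 1 or wild type replicate 3 (Cyp51) and without wild type replicate 4 (Srebf2). The term for arrays numbered 1 and 2 against 3 and 4 was chosen after seeing the data and gave Cyp51 an unadjusted p of 0.0349 and a limma adjusted p of 0.835. The cause of these shifts was not tested. Dim probe sets such as that of Idi1 limit what can be read from small differences.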
